A study of Mus musculus with 5 samples.

Results

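RAP1 peaks that stood at least 2-fold above the Rap1-deleted control, in places where that control had reads to count, numbered 1094 of the 30398 listed peaks (3.60%). A peak was taken when its strand windows held 3 or more negative reads and at least 2 times as many positive reads after the negative reads were multiplied by 3.32, the depth factor that the authors' deposited folds carry. These peaks were thus selected on their strand-window reads, and nothing computed from those reads tests them. Positive reads were taken as wild-type and negative reads as Rap1-deleted, because the design text gives cells without Rap1 as the control; the list itself does not name its read sets further, and whether input reads entered the negative set is not known. Where the text writes control, it means this negative set. A strand window is the deposited count of forward or reverse reads for a peak, and the ratio below is positive over scaled negative reads, both strands summed.

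The series has 5 chromatin immunoprecipitation sequencing libraries of mouse embryonic fibroblasts carrying the SV40 large T antigen, which immortalises cells by inactivating p53 and RB. Per the labels they are 2 wild-type and 2 Rap1-deleted lines precipitated with a RAP1 antibody, and 1 input without antibody. The wild-type and Rap1-deleted lines are on a mixed background, and all cells were grown with puromycin. The labels do not say how Rap1 was deleted or give the Rap1 genotype of the input cells. The deposited peak list pools the libraries into the positive and the negative set, so no value has a spread between replicates, no library's depth is known, and no test between libraries was possible. Peaks are not replicates and no test was made over them. Intervals are 95%, exact, and cover counting error only, since PCR copies are not independent molecules.

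RAP1, encoded by Terf2ip, is a subunit of shelterin, the complex that covers telomeres. It is held on the TTAGGG repeats through TRF2 and has little affinity for DNA of its own, and it is also known from sites away from telomeres. In fibroblasts without Rap1 the antibody has no RAP1 to bring down, so reads from these cells measure what a site gives without it. Most listed peaks have no such read, and for them the excess over the control is only a bound. The peaks described here are those where the control could be counted and the ratio reached 2-fold. They are called peaks above the control below, which names this rule and not an excess established for each peak. In 585 of the 1094 the lower bound of the ratio was 1 or less.

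The control count behind these peaks was small. Of the 4912 listed peaks with 3 or more negative reads, the 1094 are the 22.3% that reached the 2-fold ratio, which is the rule and not a finding. Their negative reads ran from 3 to 32 with a median of 4, and 914 of them (83.5%) had 3 to 5. Their positive strand-window reads ran from 20 to 481 with a median of 37, and the ratio ran from 2.01 to 11.01 with a median of 2.64 and an interquartile range of 2.29 to 3.31. A ratio of 3 or more was seen in 385 peaks, 7.84% of the 4912, and one of 5 or more in 56, 1.14% of the 4912.

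At 3 negative reads the rule asks for 19.92 positive reads, and every listed peak has at least 20. All 434 listed peaks with exactly 3 negative reads therefore entered, and they make up 39.7% of the 1094. With 4 negative reads 299 of 455 listed peaks entered, with 5 reads 181 of 469, with 6 reads 82 of 430, and with 7 reads 45 of 421. Of the 2703 listed peaks with 8 or more negative reads 53 entered (1.96%), and 12 of these had 10 or more. The median ratio was 3.01 at 3 negative reads, 2.56 at 4, 2.47 at 5, 2.36 at 6, 2.32 at 7, 2.41 at 8 to 9 and 2.76 at 10 or more, the last from 12 peaks.

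**Figure D1:**
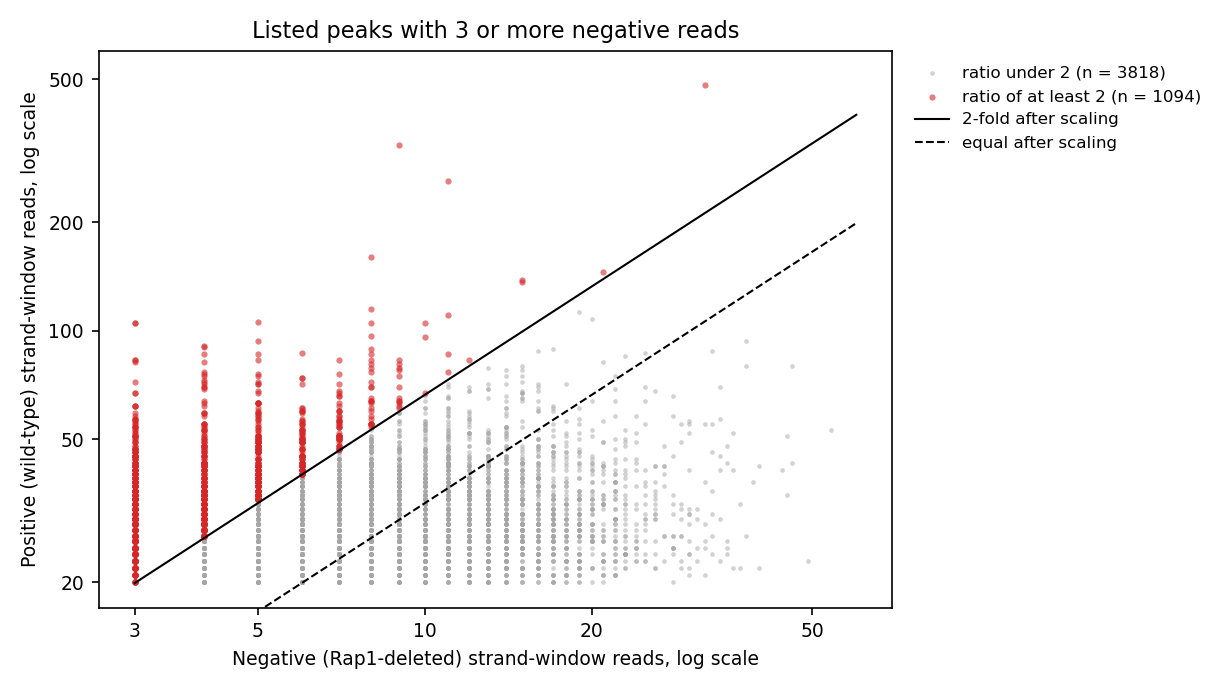
Positive against negative strand-window reads, both on log scales, for the 4912 listed peaks with 3 or more negative reads; each point is a peak, the solid line is 2-fold and the dashed line equality after scaling by 3.32. The 1094 peaks above the solid line crowd at 3 to 5 negative reads, and only 12 lie at 10 or more.

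Few of these ratios were fixed well by their counts, since 914 of the 1094 peaks had only 3 to 5 negative reads. The lower bound of a ratio rises with the ratio as well as with the counts. It therefore does not say how well the control was measured, and 194 peaks with a lower bound above 1 had exactly 3 negative reads. The 95% interval had its lower bound above 1 in 509 of the 1094 peaks (46.5%), against 10.5% of the 4912, and reached 1 or less in the other 585. A lower bound of 2 or more, an excess of the size the rule names, was seen in 29 peaks (2.65%), 0.59% of the 4912. These 29 had 3 to 32 negative reads, 11 of them exactly 3, and 8 of them lay on chromosome 11. The 12 peaks with 10 or more negative reads all had a lower bound above 1, which the rule fixes at such counts. Just outside the rule, 66 positive against 10 negative reads already gave a lower bound of 1.02. Of the 12 peaks, 2 had a lower bound of 2 or more.

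Peaks just inside and just outside the 2-fold line had overlapping intervals. The lowest ratio, 2.01, was shared by 14 peaks, 8 with 40 positive against 6 negative reads and 6 with 20 against 3. The 3 best-ranked of them all had 40 against 6 (0.846 to 5.80) and lay on chromosome 17 from 23685681 to 23685711, on chromosome 3 from 116012308 to 116012369 and on chromosome 19 from 6378098 to 6378208. Just outside, the peak on chromosome 4 from 128634365 to 128634410 had 53 against 8 reads, a ratio of 1.995 (0.943 to 4.86). The next outside, on chromosome 16 from 17558235 to 17558295, had 66 against 10 (1.99, 1.02 to 4.34), and the one on chromosome 13 from 103753703 to 103753737 had 33 against 5 (1.99, 0.771 to 6.52).

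The negative reads of a peak nearly always stood on 1 strand. Every listed peak has at least 10 forward and 10 reverse positive reads, so positive reads on both strands are a property of the list. Negative reads have no such minimum per strand, so the 2 sets cannot be compared in this respect. In 1038 of the 1094 peaks (94.9%) 1 strand window held all the negative reads, the forward one in 509 and the reverse one in 529, and the other strand was listed at 0. Among the 3818 peaks with 3 or more negative reads and a ratio under 2, 3232 (84.7%) were of this kind. The median forward share of positive reads was 49.0%, and 1034 of the 1094 peaks (94.5%) had between 30% and 70% of them on the forward strand. The share was 98.1% of all peaks, 97.1% of those with a ratio under 2 and 98.4% of those without negative reads. With at least 10 positive reads on each strand, a peak with few positive reads cannot leave that range. The 1094 peaks had more of them, a median of 37 against 28 over all peaks, so these shares cannot be compared.

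On the strand that held the control reads, most of these peaks fell short of 2-fold, but the measure itself lowers every ratio. It keeps all negative reads and leaves out the other strand's positive reads, of which every listed peak has at least 10. Among peaks with a ratio under 2 the median was 0.502 where negative reads lay on 1 strand, against 0.971 over all of them with both strands. In the 1038 peaks the strand with the negative reads held a median of 19 positive reads (interquartile range 14 to 25). The strand listed at 0 in the control held a median of 17 (13 to 23). The same-strand ratio ran from 0.502 to 6.66 with a median of 1.39. It was 2 or more in 188 of the 1038 (18.1%), which is 4.4% of the 4270 listed peaks whose 3 or more negative reads lie on 1 strand, and it was 1 or less in 113 (10.9%). Its lower bound was above 1 in 47 peaks, 1.1% of the 4270, and 2 or more in 2. Summed over the 1038, the same-strand ratio was 1.51 (1.46 to 1.56), against 2.90 (2.81 to 2.98) over all 1094 with both strands. A 0 on the other strand counts as a true absence of control reads in the rule, and whether the strand windows miss negative reads was not tested.

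**Figure D2:**
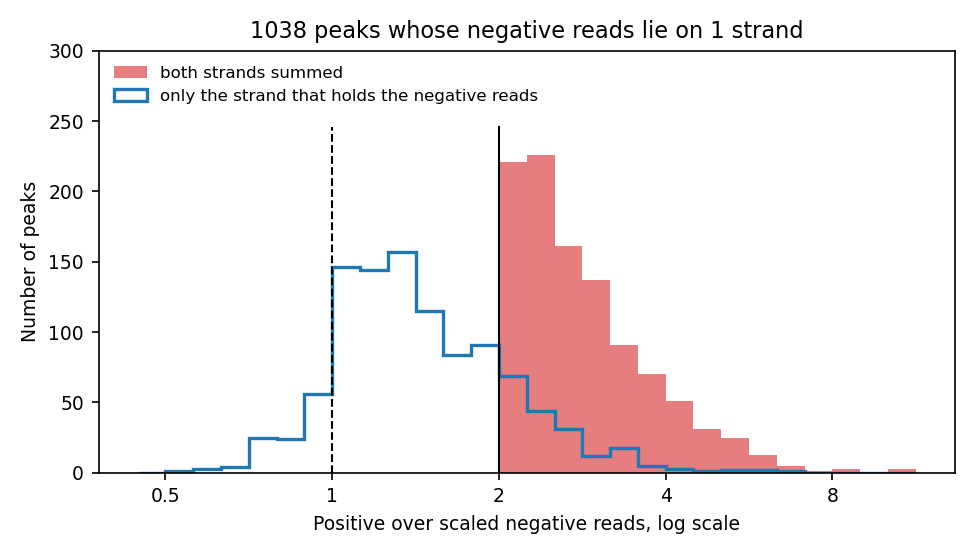
Number of peaks by ratio, on a log scale, for the 1038 peaks whose negative reads lie on 1 strand; filled bars sum both strands and the outline uses only the strand with the negative reads, with equality (dashed) and 2-fold (solid) marked. The outline leaves out the positive reads of the other strand, so every peak moves to a lower ratio. It has its median at 1.39, and 188 of the 1038 peaks stay at or beyond 2.

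The 56 peaks with negative reads on both strands allow the ratio to be read on each strand. In 27 of them both strands reached 2-fold, and in 55 both were at 1 or more. Together with the 188 single-strand peaks, 215 of the 1094 reached 2-fold on every strand that held control reads. For the single-strand peaks this sets 1 strand's positive reads against all the negative reads, a stricter demand than the rule.

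The highest negative window mostly lay apart from the positive one on its strand. On the forward strand it lay a median of 59 bp after the forward positive window (interquartile range 23 to 100 bp, 565 peaks). On the reverse strand it lay a median of 58 bp before the reverse positive window (585 peaks). For the peaks with a ratio under 2 these distances were 41 and 42 bp. Forward negative windows lay inside the peak in 273 of 565 peaks, after its end in 286 and before its start in 6. Reverse negative windows lay inside in 266 of 585 and before the start in 319, and after the end in 0. In most peaks the same-strand ratio may therefore compare reads at neighbouring positions, not at the same base. These are positions of the highest windows only, and where the other counted reads lie was not tested.

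The whole-peak columns saw the control in few of these peaks. A whole-peak negative count of 1 or more was listed for 26 of the 1094 (2.38%, 1.56 to 3.46), against 78 of all 30398 listed peaks (0.257%). In those 26 the whole-peak ratio ran from 4.44 to 30.7 with a median of 7.76. All 26 reached 2-fold there, as did 100% of the 78 listed peaks, so nothing can be read from that count. Over the 26, these columns summed to 2865 positive and 108 negative reads (7.99, 6.59 to 9.77), and the strand windows to 2911 and 204 (4.30, 3.73 to 4.98). In 10 of the 26 the count of negative reads was equal in both kinds of column.

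The best-ranked of these peaks, by the authors' deposited rank, held 72 to 481 positive and 3 to 32 negative strand-window reads. On chromosome 2 from 57482074 to 57482124, the best-ranked peak of the list had 130 forward and 199 reverse positive reads against 0 and 9 negative reads. Its ratio of 11.01 (5.73 to 24.3) is the highest of the 1094, and on the reverse strand alone it is 6.66. The peak ranked 3, on chromosome 4 from 31281392 to 31281422, had 60 forward and 100 reverse positive reads, and its 8 negative reads were all forward. There the ratio of 6.02 with both strands became 2.26 on the forward strand alone. Such a drop follows from leaving out the other strand's positive reads, and its size differed down the ranks.

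The peak ranked 17, near the distal end of chromosome 2 from 181652083 to 181652137, had 17 forward and 55 reverse positive reads and 5 forward negative reads. Its ratio was 4.34 (1.78 to 13.8) with both strands and 1.02 on the forward strand. The peak ranked 13, on chromosome 2 from 29627305 to 29627382, had 30 reverse positive against 5 reverse negative reads, a ratio of 1.81 there and 4.58 with both strands. In contrast, the peak ranked 14, on chromosome 17 from 53291729 to 53291957, had 62 of its 72 positive reads and all 3 negative reads on the reverse strand, so that its ratio of 7.23 changed little, to 6.22.

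Of the 10 best-ranked, 4 had control reads on both strands, and all 4 exceeded 2-fold on each. On X from 73843980 to 73844188, 126 forward and 135 reverse positive reads stood against 5 and 6 negative reads. The forward ratio was 7.59 (3.17 to 23.8) and the reverse ratio 6.78. On X from 73844477 to 73844506, 232 forward and 249 reverse positive reads stood against 9 and 23, with a forward ratio of 7.76 and a reverse ratio of 3.26. These peaks lie 0.288 kb apart and are the only listed peaks in the 0.527 kb they span, with a joint ratio of 5.20 (3.82 to 7.24). On chromosome 2 from 32343068 to 32343149 the forward ratio was 5.87 from 2 negative reads and the reverse ratio 3.61 from 4. On chromosome 11 from 53954003 to 53954066 the forward ratio was 2.64 and the reverse ratio 5.27, each from 4 negative reads.

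**Figure D3:**
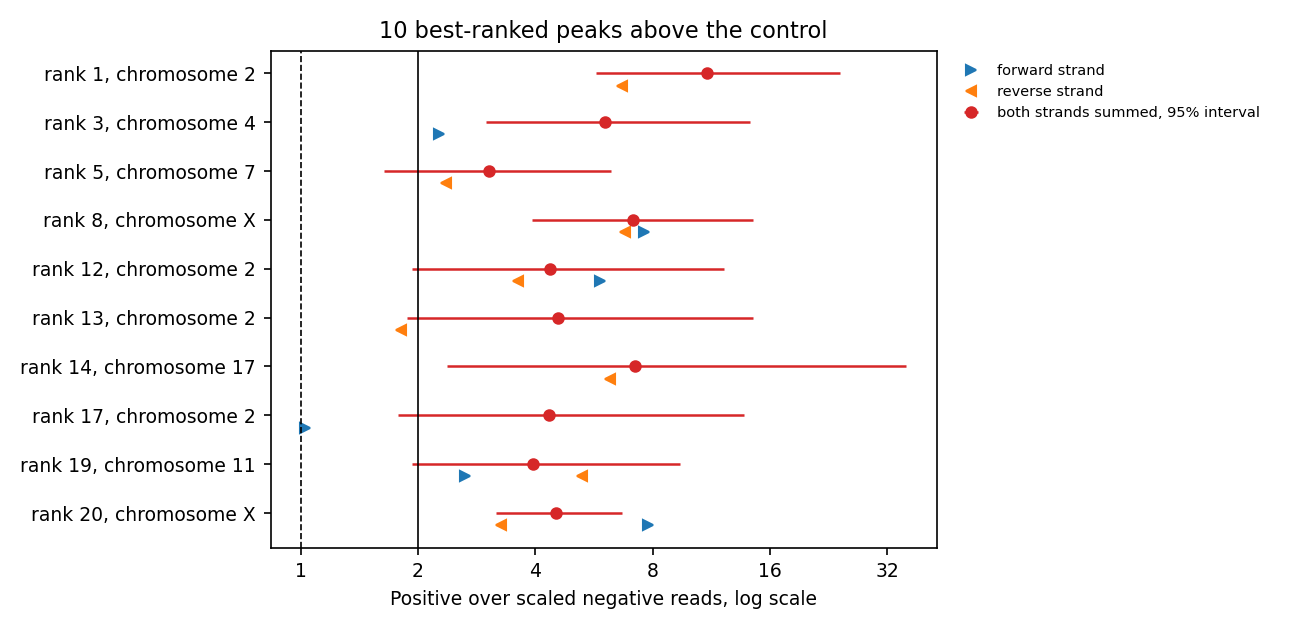
Ratio of positive over scaled negative strand-window reads, on a log scale, for the 10 best-ranked peaks above the control; circles sum both strands with 95% intervals, and triangles give the strand or strands with negative reads. Where negative reads lie on 1 strand, the triangle leaves out the other strand's positive reads and must lie below the circle's ratio. The chromosome 2 peak ranked 17 falls from 4.34 to 1.02 on its forward strand, while both X peaks stay above 3 on each strand.

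The highest ratios after the best-ranked peak all rested on 3 negative reads. Both the chromosome 7 peak from 152479821 to 152479940 and the chromosome 19 peak from 5794075 to 5794133 had 105 positive against 3 negative reads, a ratio of 10.5 (3.51 to 51.9). Their same-strand ratios were 6.12 and 5.42. Next came chromosome 4 from 150231991 to 150232106 and chromosome 2 from 152646178 to 152646740, each with 83 against 3 reads, a ratio of 8.33 (2.75 to 41.2). On the strand with the negative reads these gave 5.12 and 4.82. The 5 highest lower bounds belong to the best-ranked peak at 5.73, the X peaks at 3.93 and 3.16, and the 3-read peaks of chromosomes 7 and 19 at 3.51.

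Of the 5 peaks with the most negative reads, 2 exceeded 2-fold on each strand that held them and 3 did not. The first 2 are the X peak with 32 negative reads and a chromosome 1 peak with 15, which is described below with the longest peaks. After the X peak with 32 negative reads came chromosome 18 from 3005399 to 3005450 with 146 positive against 21 negative reads, a ratio of 2.09 (1.32 to 3.48). Its forward ratio was 11.3 from 2 negative reads and its reverse ratio 1.13 from 19. On chromosome 7 from 152439141 to 152439172, 138 positive stood against 15 negative reads (2.77, 1.62 to 5.09), with 4.97 forward and 1.31 reverse. On chromosome 11 from 3091929 to 3092050, 83 positive stood against 12 negative reads, all reverse, for a ratio of 2.08 (1.13 to 4.19) and 1.03 on the reverse strand.

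The longest of the 1094, and the longest peak of the list at 940 bp, lies on chromosome 1 from 162969432 to 162970371. It had 137 positive against 15 negative reads, a ratio of 2.75 (1.61 to 5.05), with 2.05 forward and 4.67 reverse. The next longest were 623 bp on chromosome 15 from 77788065 to 77788687, with 91 against 4 reads (6.85, 2.59 to 25.7), and the 563 bp chromosome 2 peak with 83 against 3 reads. In all 3 the reverse-strand mode, the position with most reverse reads, lay upstream of the forward mode, by 77, 62 and 186 bp.

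Length and strand shape were not part of the rule, but both differed with the number of reads. The 1094 peaks had a median length of 60 bp (interquartile range 36 to 95 bp), against 56 bp over all listed peaks. Of them 217 (19.8%, 17.5 to 22.3) were 29 to 31 bp long, against 17.8% of all peaks, 29.6% of those with 3 or more negative reads and a ratio under 2, and 15.7% of those without any negative read. At the other end, 216 (19.7%, 17.4 to 22.2) were 120 bp or longer, against 10.5% of all peaks, and 73 (6.67%) were 300 bp or longer, against 3.16%. Of the 1094, 236 (21.6%) also held 50 or more positive strand-window reads, against 3.93% of all peaks.

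Within ranges of positive reads the lengths lay between those of the other classes. At 20 to 29 positive reads the median length was 41.5 bp, against 39 bp with a ratio under 2 and 51 bp without negative reads. At 40 to 59 reads these medians were 78, 68 and 84 bp. In each of 4 ranges, peaks of 29 to 31 bp were less frequent here than among peaks with a ratio under 2 and more frequent than among peaks without negative reads: 28.4% against 34.6% and 19.5% at 20 to 29 reads, and 13.4% against 19.3% and 8.29% at 40 to 59. For peaks of 120 bp or more that order held in none of the 4 ranges. At 20 to 29 reads the shares here, with a ratio under 2 and without negative reads were 6.47%, 5.36% and 3.998%. At 30 to 39 reads they were 14.4%, 14.8% and 14.8%. At 40 to 59 reads they were 28.5%, 26.0% and 30.8%, and at 60 or more 41.4%, 39.4% and 43.1%. No test was made of these differences.

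**Figure D4:**
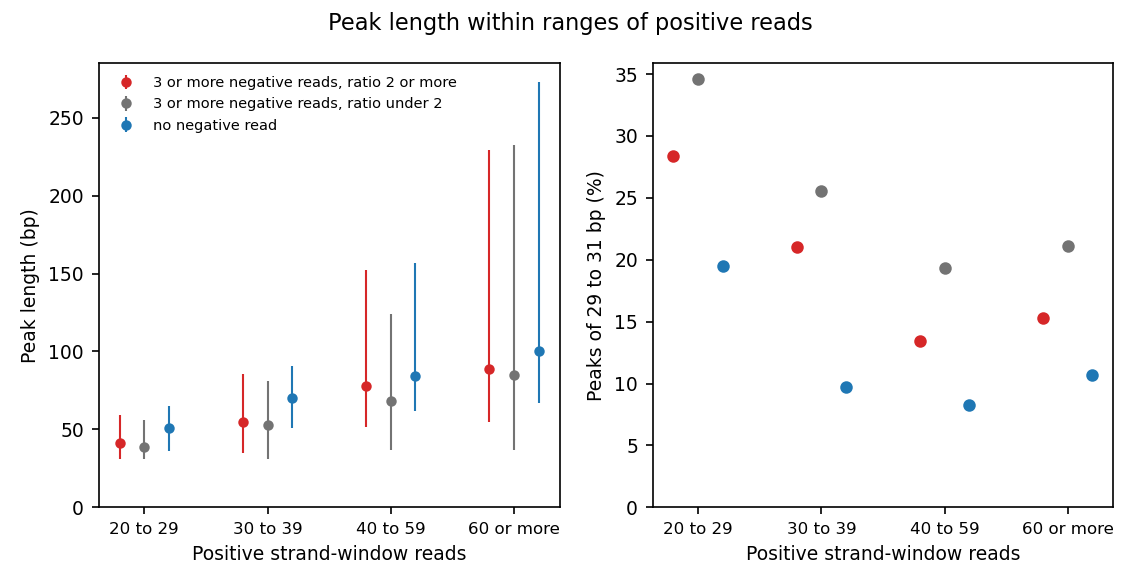
Left, median peak length in bp with quartiles as bars, and right, the percentage of peaks of 29 to 31 bp, in 4 ranges of positive strand-window reads for peaks above the control (red), peaks with 3 or more negative reads and a ratio under 2 (grey) and peaks without negative reads (blue). Red points lie between grey and blue in every range on the right, for example at 28.4%, 34.6% and 19.5% at 20 to 29 reads.

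Around a bound protein, forward reads pile up on the left and reverse reads on the right of the site. The reverse mode lay downstream of the forward mode in 958 of the 1094 peaks (87.6%, 85.5 to 89.5), against 93.0% of all peaks and 93.7% of those without negative reads. The median distance was 49 bp here and 52 bp over all peaks. Of the 136 peaks where the reverse mode was not downstream, 131 were 120 bp or longer. In the range of 20 to 29 positive reads, where long peaks are few, the share was 94.2%, against 94.4% with a ratio under 2 and 96.5% without negative reads. At 60 or more reads the shares were 77.5%, 78.9% and 77.3%.

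The deposited ranks and false discovery rates use the same reads as the rule, so they are given as a description. The median rank was 8353 of 30398, and 295 peaks (27.0%) were among the best-ranked 10% of the list. The deposited false discovery rate was at or under 0.01 for 807 (73.8%), against 55.9% of all peaks. It was so for 59.1% of peaks with a ratio under 2 and 54.5% of those without negative reads. Its median was 0.00513 here, against 0.00931 over all peaks. Peaks with a ratio under 2 were also ranked high at times, 497 of 3818 (13.0%) lying in the best 10%. The deposited log2 fold, which carries the positive reads alone in nearly all peaks, had a median of 4.91 here and 4.75 in peaks with a ratio under 2.

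Peaks above the control were found on every autosome and on X. Chromosome 11 had 101 of them, chromosome 2 had 86 and chromosome 3 had 85, while chromosome 12 had 20 and X had 12. Per megabase between the first and last listed peak, the density ran from 0.0745 on X to 0.850 on chromosome 11, with a median of 0.447. As a share of each chromosome's listed peaks they were 4.67% (3.69 to 5.80) on chromosome 9 and 4.61% (3.77 to 5.57) on chromosome 11, whose intervals lie above the 3.60% of the whole list. The shares were 2.02% (1.24 to 3.10) on chromosome 12, 2.10% on chromosome 14 and 2.17% on chromosome 18, with intervals below it.

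The chromosomes differed less once only peaks with 3 or more negative reads were counted. Among these the share above 2-fold ran from 17.6% on chromosome 17 to 27.0% on chromosome 9, and 0 of the 20 intervals lay wholly above or below the 22.3% of the list. How often a peak had 3 or more negative reads also differed, with 22.6% on chromosome 11, 11.2% on chromosome 12 and 11.04% on chromosome 18. The share of listed peaks above the control did not follow this on every chromosome. Chromosome 17 had 22.0% with 3 or more negative reads but 3.88% above the control, and chromosome 9 had 17.3% and 4.67%. Summed ratios over the peaks of a chromosome ran from 2.54 (2.10 to 3.10) on chromosome 18 to 3.92 (3.15 to 4.93) on X. On X the value rests on 12 peaks, and the neighbouring pair at 73.8 Mb gives 742 of the positive reads and 43 of the negative ones.

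**Figure D5:**
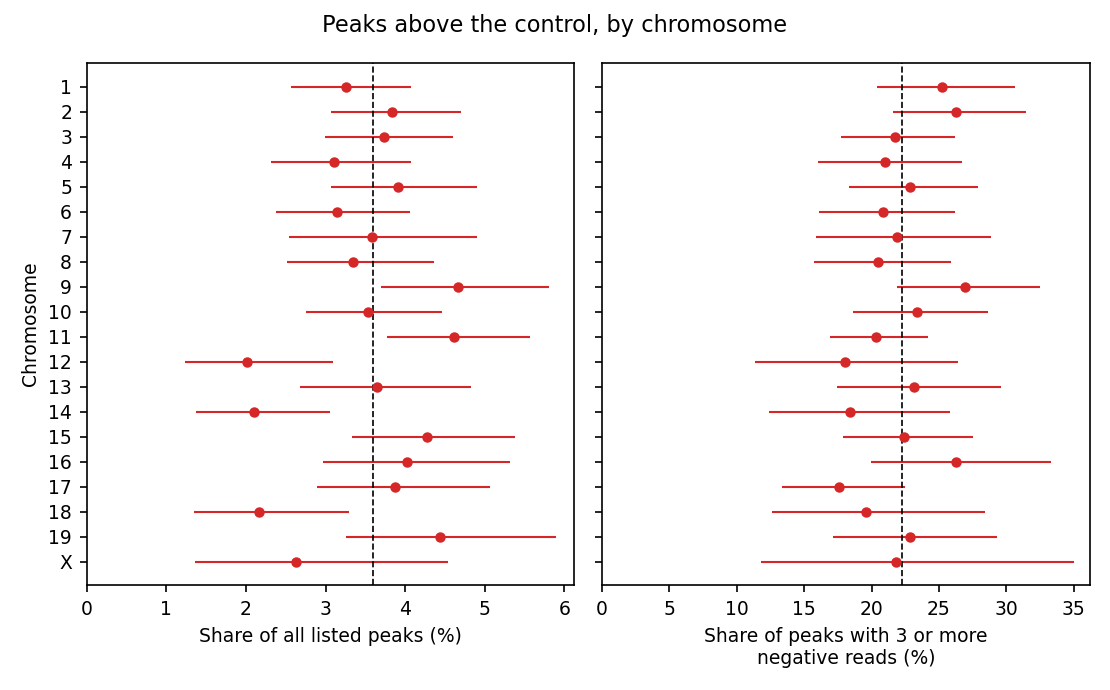
Peaks above the control on each chromosome as a percentage of all listed peaks (left) and of listed peaks with 3 or more negative reads (right), with exact 95% intervals; dashed lines mark 3.60% and 22.3%. On the left 2 chromosomes lie above and 3 below the line with their whole interval, and on the right none does.

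Nearly 1 in 2 of these peaks had another listed peak close by. Another peak lay within 10 kb of 520 of the 1094 (47.5%, 44.5 to 50.5), against 34.6% of all peaks, 45.7% of those with a ratio under 2 and 32.1% of those without negative reads. Within 1 kb the shares were 15.0%, 6.40%, 12.5% and 4.96%. Within ranges of positive reads the 10 kb shares, in the order here, ratio under 2 and no negative read, were 42.1%, 42.6% and 29.6% at 20 to 29 reads and 41.5%, 45.9% and 34.1% at 30 to 39. At 40 to 59 reads they were 54.5%, 54.5% and 40.8%. At 60 or more they were 57.7%, 71.8% and 52.9%, so that there these peaks lay nearer to those without negative reads.

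Those neighbours were mostly peaks without control reads, as most of the list is, but less often so than over all peaks. The nearest peak within 10 kb had no negative read in 317 of the 520 cases (61.0%, 56.6 to 65.2), against 74.8% over all peaks with such a neighbour. It had 3 or more negative reads and a ratio under 2 in 139 (26.7%, 23.0 to 30.8, against 16.8%), and it was itself above the control in 42 (8.08%, 5.88 to 10.8, against 5.04%). For peaks with 3 or more negative reads and a ratio under 2, the 3 shares in the same order were 67.2%, 21.7% and 7.68%. Those peaks thus differed from all peaks in the same direction.

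Few peaks above the control lay within 10 kb of another of them, but they are only 3.60% of the list. No matching value over all peaks was made for this grouping, so it is a description only. Joined at gaps of up to 10 kb they form 1045 groups, of which 1008 are single peaks, 30 are pairs, 5 are triplets, 1 has 5 peaks and 1 has 6. The largest, at the centromeric start of chromosome 11, runs from 3057471 to 3070869 and has 511 positive against 39 negative reads (3.95, 2.85 to 5.62). Its span holds 20 listed peaks, and the other 14 all have 3 or more negative reads and a ratio under 2. Within it the ratio ran from 2.04 on the peak from 3065949 to 3066009, with 61 against 9 reads, to 6.78 on the peak from 3057471 to 3057555, with 90 against 4. The peak from 3064564 to 3065030 had 2 negative reads on each strand and ratios of 6.33 forward and 6.63 reverse. The group of 5, from 3084246 to 3096885 on the same chromosome, has 10 listed peaks with a ratio under 2 in its span and a ratio of 2.81 (1.95 to 4.19).

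Other groups, chosen after their values were seen, had no peak under 2-fold between their members. On chromosome 7 from 152475427 to 152485666, 3 of 4 listed peaks were above the control, with 286 positive against 23 negative reads (3.75, 2.45 to 6.004). On chromosome 5 from 125863349 to 125864475 all 3 listed peaks were, with 181 against 14 (3.89, 2.26 to 7.27), and on chromosome 9 from 41401459 to 41403921 it was 3 of 5, with 150 against 11 (4.11, 2.23 to 8.40). These 3 groups differ in that respect from the dense groups at the start of chromosome 11.

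Mouse chromosomes are telocentric, so the list's last peak on a chromosome marks the end away from the centromere. In the 2 Mb before it lay 40 of the 1094 peaks (3.66%, 2.62 to 4.95), against 750 of 30397 listed peaks (2.47%, 2.30 to 2.65, without the 1 peak on Y), 2.70% of those with a ratio under 2 and 2.36% of those without negative reads. Without chromosome 7 the share was 33 of 1057 (3.12%, 2.16 to 4.36), against 2.41%. In the distal 1 Mb it was 2.65% (1.78 to 3.78) against 1.46%, and in the distal 5 Mb 8.14% (6.58 to 9.92) against 5.29%. By positive reads the distal 2 Mb share had no steady course here: it was 4.32% at 20 to 29 reads, 1.73% at 30 to 39, 3.35% at 40 to 59 and 9.01% at 60 or more. With a ratio under 2 these shares were 2.73%, 1.80%, 4.07% and 7.04%, and without negative reads 2.40%, 2.11%, 2.49% and 6.22%.

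The 3 best-ranked distal peaks are the chromosome 7 peak from 152475427 to 152475459, the chromosome 2 peak ranked 17 described before, and the chromosome 7 peak with a ratio of 10.5. The first of them had 25 forward and 86 reverse positive reads against 11 reverse negative reads, a ratio of 3.04 (1.63 to 6.26) and 2.35 on the reverse strand. They end 41.2, 95.8 and 36.7 kb before the last listed peak end of their chromosomes. Closer still, and chosen after its values were seen, was the chromosome 10 peak from 129973377 to 129973406, 0.352 kb before that end. It had 106 positive against 5 negative reads, a ratio of 6.39 (2.65 to 20.1), and 3.49 on the forward strand that held the negative reads. Chromosome lengths and sequence of the build were not used here, so the distance to the telomere repeats is not given and no peak was assigned to a gene.

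The proximal 2 Mb, at the centromeric end, held 39 of the 1094 (3.56%, 2.55 to 4.84), against 1.91% of all peaks and 3.14% of those with a ratio under 2. Chromosome 11 gave 15 of the 39, the groups at its start among them. Without that chromosome the shares were 2.42% (1.55 to 3.57), 1.56% and 1.67%.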

How the data were processed

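Libraries came from 2 wild-type and 2 Rap1-deleted fibroblast lines and 1 input; the deposited list gives pooled values only. Per the file headers, the authors deposited counts of positive and negative reads over each peak and in strand windows, the highest window as a coverage signal in reads, log2 folds, the peak caller's false discovery rate (a q-value) and a score named Delta, which was not used. Coordinates are in mm9, the build named per the submitters' processing notes, while the aligner, caller and filters are not given in the sources used here. From the deposited log2 folds the factor of 3.32 was solved, and 140 of 141 solvable strand entries lay within 0.001 of their median.

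Ratios have exact conditional binomial and shares exact Clopper-Pearson 95% intervals (Python 3.11.15, scipy 1.17.1), checked on simulated data. Peaks were named by rule: the 10 best-ranked, the 5 with the highest ratio, lower bound or negative count, the 3 longest, the 3 best-ranked in the distal 2 Mb, 3 on each side of the 2-fold line and the largest group. The rule, classes and lists were chosen with earlier results of these data known. The planned test between libraries needs values per library and was not run. Sequence, genes and the planned gene lists need mm9, which was not used here. Alternatives were other minimums, ratios, factors, windows and columns, single strands, and leaving out each chromosome.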

Additional observations from a re-analysis of the deposited data

How the results depend on the processing

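The number of peaks followed the rule closely. It was 1889 with a minimum of 1 negative read, 361 with 5 and 12 with 10; 1767 with a ratio of at least 1.5 and 385 with 3; 29 with a lower bound of at least 2; 2434 with a depth factor of 2 and 385 with 5; and 26 in the whole-peak columns. Asking for 2-fold on each strand with negative reads, chosen after seeing the data, gave 215. A minimum of 2 (1508) and a false discovery rate at or under 0.01 (807) kept it within 1.5 times. The summed ratio of 2.90 was 2.67 with 5 or more negative reads, 2.64 as a median and 127 in the whole-peak columns, where nearly all negative counts are 0. On the strand with negative reads, also chosen afterwards, it was 1.51, with the other strand's positive reads left out. Leaving out each chromosome gave 2.88 to 2.91. With 5 or more negative reads 83.1% had the reverse mode downstream, 54.3% a peak within 10 kb and 6.37% lay in the distal 2 Mb. The downstream share was 90.7% at a false discovery rate at or under 0.01, against 96.1% of all peaks at that cut. For a distance of 20 bp or more it was 79.1%, against 86.8% of all peaks. At most 40 bp long were 30.7%, against 27.8% of all peaks. A peak lay within 1 kb of 15.0% and within 100 kb of 95.4%, and another of the 1094 within 10 kb of 7.86%. In the distal 5 Mb lay 8.14%. The other alternatives stayed within the 95% bounds of their value. No paired analysis was possible because the list holds no column for a single library. With 3 to 5 control reads in most peaks, depth limits each ratio.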

Other observations

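Some read-rich listed peaks, those above the control among them, had poor deposited ranks. Of the 111 peaks above the control with 60 or more positive strand-window reads, 9 lay in the worse 50% of the list. So did 27 of all 428 listed peaks with that many reads. The most read-rich of the 9 is the chromosome 7 peak from 152439141 to 152439172, ranked 22199, with 99 forward and 39 reverse positive reads and a deposited log2 fold of 2.52. The poorest rank among them, 29563, belongs to a 523 bp peak on chromosome 19 from 37982298 to 37982820, with 63 positive against 5 negative reads (3.80, 1.54 to 12.1). Another, on chromosome 10 from 110447561 to 110447735, ranked 24793, had 67 against 3 reads and is among the 29 with a lower bound of at least 2 (6.73, 2.21 to 33.4). All 3 were chosen after their values were seen.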
